A study of Mus musculus with 2 samples.

Results

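Genes that carry the electrical impulse through the heart were examined in the left ventricle of mice lacking Bmal1 in cardiomyocytes. They are the sodium channel genes Scn4a and Scn4b, the pacemaker channel genes Hcn2 and Hcn4, and the connexin genes Gja1, Gja5 and Gjc1. The 7 genes were chosen by symbol, and all 9 probes whose annotation maps to them were read, of 26759 probes with a symbol for 20282 genes. A gene counts as measured when a probe of it was called well above background on 1 or both arrays, which held for 6 of the 7 genes and for 13848 genes in all. Hcn4 was the gene not measured.

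The mutant animals were heart-specific Bmal1 knockout (H-Bmal1-/-) males, which carry a floxed Bmal1 gene (the Arntl tm1Weit allele, described as a C57BL/6J line) and a Cre transgene driven by the Myh6 (αMHC) promoter. Controls were male littermates with the floxed gene and no Cre transgene, although the sample labels call their genotype wildtype. Left ventricles were taken at 12 weeks of age at zeitgeber time 2, and RNA of 6 animals per genotype was pooled and hybridized to 1 single-color Agilent SurePrint G3 Mouse array. Myh6 is expressed in cardiomyocytes, so other cells of the ventricle keep an intact floxed gene, and no animals with Cre alone were compared. The paper cautions that, with samples from zeitgeber time 2 alone, a change may reflect a shifted peak or trough of a rhythm. It also reports larger hearts and lower fractional shortening in the knockouts at 12 weeks. The part of either in the ratios below was not tested. With 1 array per genotype there was no replicate error between animals and no test was possible. A difference of 1.5-fold (0.585 on the log2 scale) served as a rule of size in place of a call.

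Voltage-gated sodium channels open the upstroke of the cardiac action potential. An alpha subunit forms the pore, and beta subunits modify its gating and its place in the membrane. HCN channels open on hyperpolarization, bind cyclic AMP and carry the inward current of pacemaker cells. Connexins assemble into gap junctions, through which current passes from 1 myocyte to the next, and the atria, the ventricle, the nodes and the Purkinje fibers use different members. BMAL1 is the transcription factor that, paired with CLOCK or NPAS2, drives the circadian clock through E-box elements, while REV-ERB and ROR receptors of the same clock bind elements with the core AGGTCA.

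Signals below are the processed signals of each array on a linear scale. A log2 ratio is the value of the knockout pool less that of the control pool after each array was set to its own 75th percentile, which was 190.1 on the knockout array and 171.1 on the control array, a difference of 0.15 on the log2 scale. A probe with equal processed signals on both arrays therefore has a ratio of -0.15. The standard error (SE) given for a ratio is that of the scanner software's error model for 1 spot, which covers the array and not the animals. Of the targeted gene, Arntl (the official symbol of Bmal1), the processed signal was 328 in the knockout pool and 513 in the control pool, a ratio of -0.80, and where its probe lies relative to the deleted exon could not be determined. Nr1d1, a direct target of BMAL1 that encodes REV-ERBα, had 101 in the knockout pool and 385 in the control pool (-2.09). Dbp, a clock-driven transcription factor, had a ratio of -0.36. Per2, a repressor of the clock, had 23.8 in the knockout pool and 4.65 in the control pool, where it was not above background, and was at least 1.94-fold higher in the knockout.

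Across the 6 measured conduction genes, 2 had higher and 4 had lower values in H-Bmal1-/- ventricles, with a median ratio of -0.15 against -0.01 over all measured genes. The median was -0.00 without scaling between the arrays, where 3 genes were higher and 3 lower. Only Hcn2 passed 1.5-fold, and it did so upward. In the whole set of 13848 measured genes, 6.15% were past that rule upward and 5.85% downward. The count of 1 gene up and 0 down among 6 was too small to read against those shares. Of the 7 measured probes, 3 had ratios within 1 SE of 0, 5 were within 2 SE, and 2 were beyond, namely 1 of the Hcn2 probes and the Gjc1 probe.

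**Figure D1:**
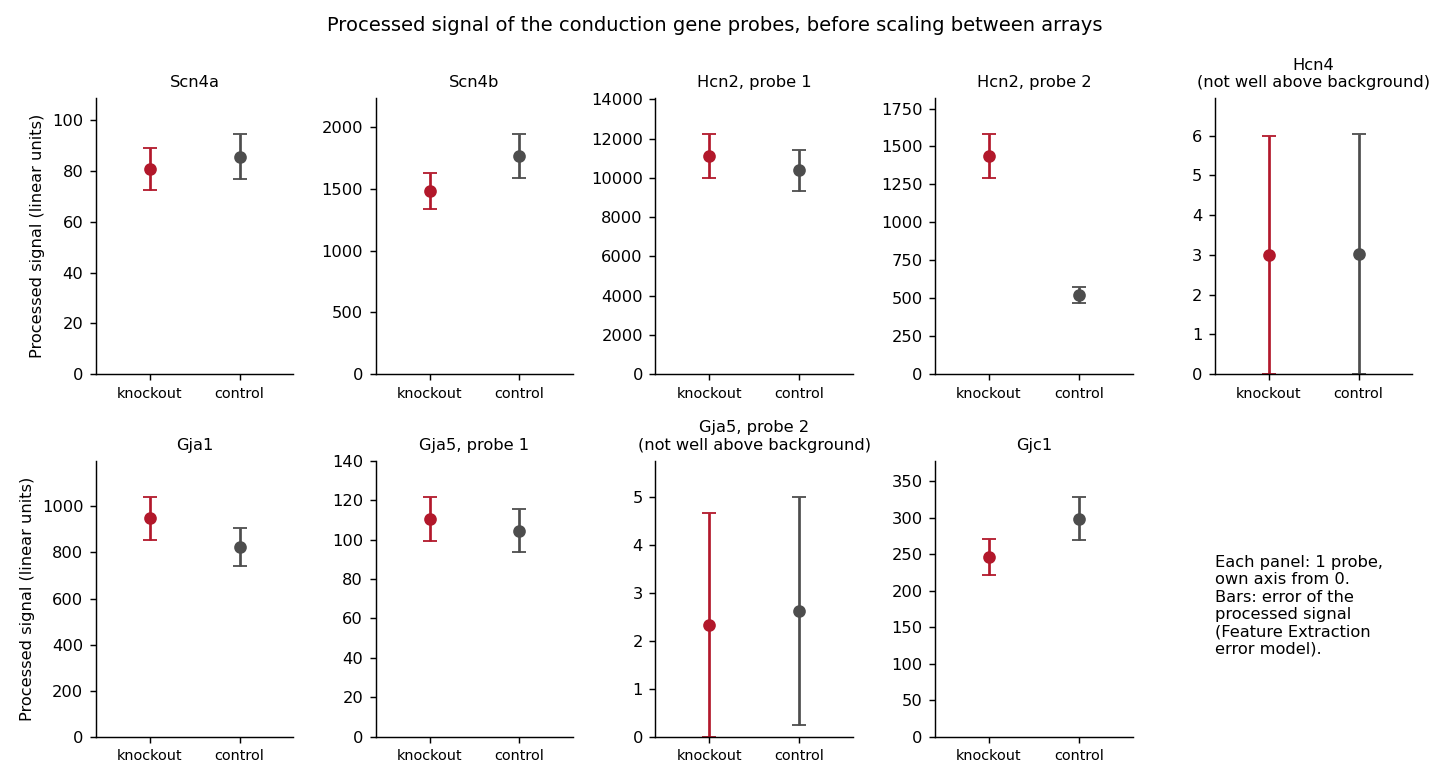
Processed signal (linear units, vertical axis from 0 in each panel) of the 9 conduction gene probes on the knockout array (left, red) and the control array (right, grey), with bars for the error of the signal from the scanner software. The error bars of the arrays lie apart for Hcn2 probe 2, and overlap for the other probes.

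Hcn2 encodes the HCN channel that is found in ventricular muscle as well as in pacemaker cells, and its probes did not behave alike. Probe 1 (A_55_P2088202) had a processed signal of 11125 in the knockout pool and 10378 in the control pool, a log2 ratio of -0.05 (SE 0.20). Probe 2 (A_55_P2088203) had 1439 in the knockout pool and 521 in the control pool, a log2 ratio of 1.31 (SE 0.20), or 2.49-fold higher in H-Bmal1-/- ventricles. One probe was thus close to the control level and the other far above it. Their mean, 0.63 or 1.55-fold higher, lies just past the 1.5-fold rule and describes neither probe. With the brightest probe taken in place of the mean, the gene has a ratio of -0.05 and no conduction gene passes 1.5-fold.

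The gap between the Hcn2 probes, 1.37 on the log2 scale, is uncommon on these arrays. Of 3268 genes with 2 or more probes measured on both arrays, 17 (0.52%) had probes as far apart, and the median gap was 0.14. Taken singly, probe 2 was among the 183 of 25619 probes (0.714%) measured on both arrays that had a ratio as high or higher, while 4.40% of those probes passed 1.5-fold upward. Each Hcn2 probe was printed once, so neither has repeat spots. Over 247 probes printed 8 times or more, the SD of the log2 ratio between spots was 0.07 at the median and 0.26 at the 95th percentile. Both probes are annotated to the same Hcn2 transcript, and neither their sequences nor their places in it are in the sources used here.

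Hcn4 encodes the main pacemaker channel of the sinoatrial node. Its only probe had a processed signal of 3.0 in the knockout pool and 3.02 in the control pool. Neither was well above background, since the lowest signal that was so called was 11.07 on the knockout array and 11.06 on the control array. Its level was therefore only bounded, and no fold was taken. The probe of Hcn3, a further member of the family, was also not above background on either array.

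Of the conduction genes with a promoter window, only Hcn2 held any of the 4 motifs searched, and its window is printed for that reason. Promoter windows of 300 bases, 250 before and 50 after the start of the gene (RefSeq, GRCm38.p6), were at hand for 6 of the 7 genes. They were searched on both strands for the E-box CACGTG, the variant CACGTT, the D-box TTATGTAA and the core AGGTCA, which stand in 7.15%, 4.68%, 0.938% and 16.3% of all 32851 windows. None of the first 3 was found in any of the 6 windows. AGGTCA was found in 1 of 6, a count too small to read against its share of 16.3%. The match is a description of letters and not of a bound site. The Hcn2 window (chr10:79716384-79716683, plus strand) holds the core 2 times on its minus strand, so that it reads TGACCT (in capitals) as printed 5′ to 3′, beginning at positions -249 and -168 relative to the start.
Hcn2 promoter: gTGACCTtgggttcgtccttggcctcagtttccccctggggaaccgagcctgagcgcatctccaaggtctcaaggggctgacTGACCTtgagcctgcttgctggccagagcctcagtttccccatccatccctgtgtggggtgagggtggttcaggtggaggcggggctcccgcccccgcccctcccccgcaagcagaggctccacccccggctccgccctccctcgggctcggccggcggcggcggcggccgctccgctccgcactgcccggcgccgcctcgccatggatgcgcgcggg

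Scn4b and Scn4a, the sodium channel genes, had lower ratios without passing 1.5-fold. Scn4b encodes a beta subunit that is linked to the pore-forming subunit by a disulfide bond. Its processed signal was 1485 in the knockout pool and 1770 in the control pool, a log2 ratio of -0.41 (SE 0.20) or 1.32-fold lower, and its ratio lay between -0.42 and -0.25 under the 6 alternatives of scaling and background that could move a gene with 1 probe. Of all measured genes, 22.3% had a ratio of larger size. Scn4a encodes the alpha subunit of skeletal muscle. Its signal was 80.8 in the knockout pool and 85.7 in the control pool (-0.24, SE 0.21), and 41.6% of genes had a ratio of larger size in either direction. The lower value of Scn4a rests largely on the scaling, since the ratio was -0.09 without it.

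Scn2b, a further beta subunit, was measured on the knockout array alone (16.4 in the knockout pool, against 11.7 in the control pool, ratio 0.33). Scn2b is the neighbor of Scn4b on chromosome 9 and had a ratio of the other sign.

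Of 9 alpha subunit genes with a probe, 7 were measured, and all 7 had ratios below 0, with a median of -0.24. This direction depends on the scaling, as 5 were lower and 2 higher without it. Scn8a, an alpha subunit of neurons that heart muscle also expresses, had 342 in the knockout pool and 363 in the control pool (-0.24). Scn7a, a sodium-sensing channel homolog, had 36.1 in the knockout pool and 42.0 in the control pool (-0.37). Scn3a had a ratio of -0.02 as the mean of probes at -0.43 and 0.38. Scn2a, a neuronal channel, had 11.1 in the knockout pool, which was not above background, and 15.8 in the control pool, with a measured ratio of -0.66 that sets no minimum. By that measured ratio (SE 0.44) Scn2a was counted as the 1 alpha gene past 1.5-fold. The correction of background by normexp, which adds 50 to every signal and so draws dim ratios toward 0, gave it -0.18. Its other probes were not above background on either array, and with them included the ratio was -0.29. Scn1a and Scn11a were not well above background on either array.

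**Figure D2:**
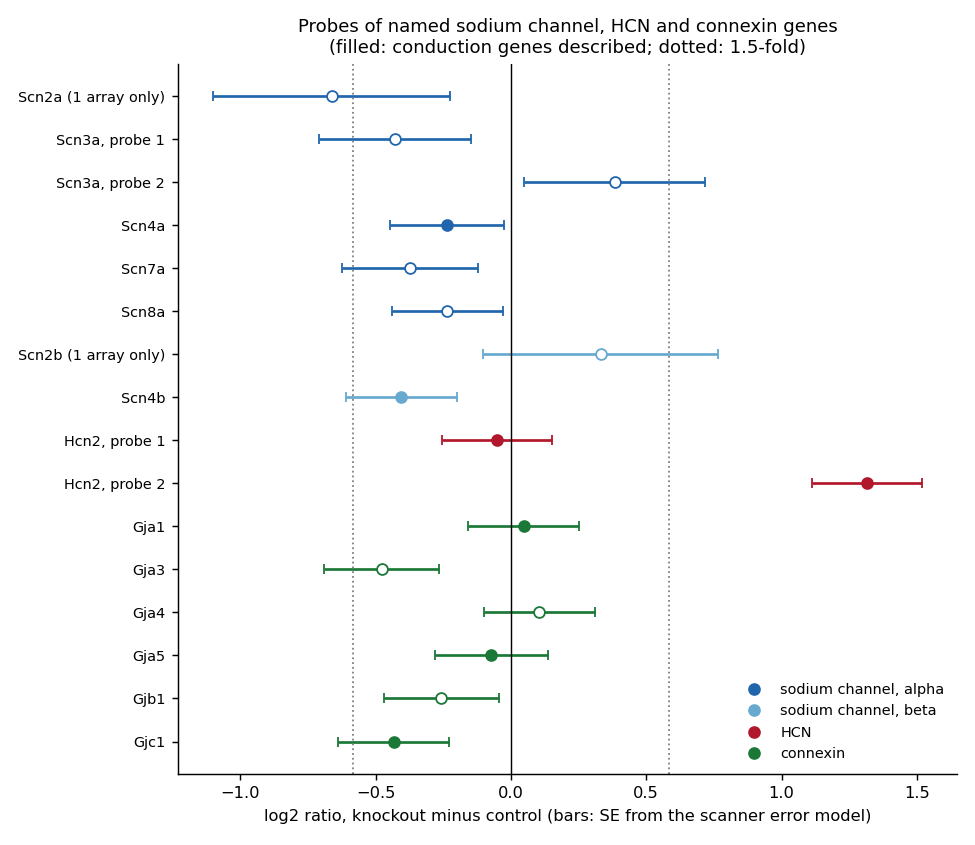
Log2 ratio, knockout minus control (horizontal axis), of measured probes of named sodium channel, HCN and connexin genes, with bars for the SE of the scanner error model, filled points for the conduction genes described and dotted lines at 1.5-fold. Hcn2 probe 2 stands at 1.31, while every connexin probe shown lies inside the dotted lines.

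Gja1, which encodes the main connexin of ventricular myocytes, showed little difference between the genotypes and is the best measured of the 7 genes. Its probe is printed 10 times on each array. The processed signal was 947 ± 43.7 in the knockout pool (SD, 10 spots, from 898 to 1022, median 937) and 826 ± 32.9 in the control pool (SD, 10 spots, from 763 to 888, median 828). All 10 knockout spots were above all control spots before scaling, a mean ratio of 0.20. After scaling the ratio was 0.05 ± 0.07 (SD, 10 spots, from -0.06 to 0.14), with 7 spots above 0 and 3 below. The coefficient of variation between spots was 4.61% on the knockout array and 3.99% on the control array. These SDs describe repeat spots of 1 labeled pool and not animals. Of all measured genes, 86.8% had a ratio of larger size than Gja1.

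**Figure D3:**
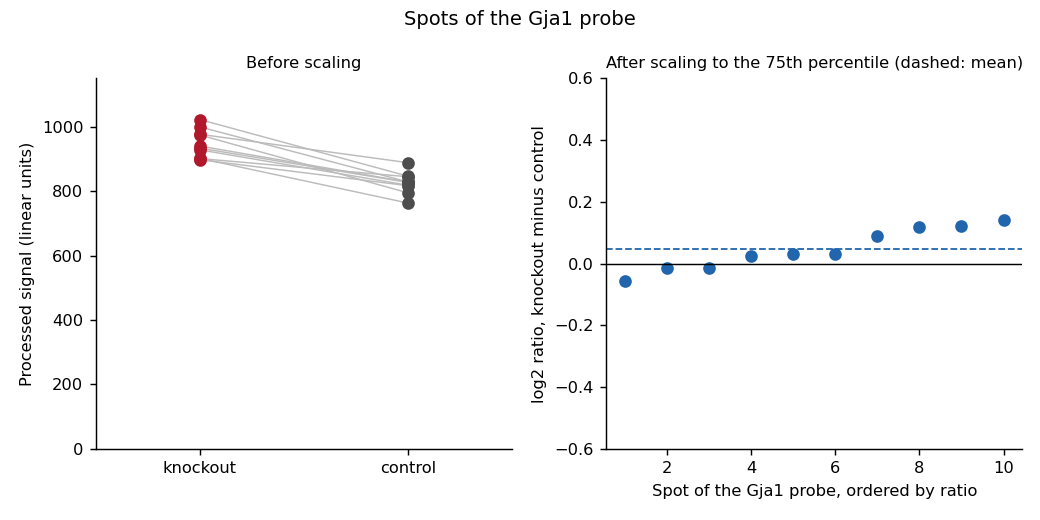
Left, processed signal (linear units) of the 10 spots of the Gja1 probe on the knockout array and on the control array, with lines joining the spots at the same place. Right, the log2 ratio of each spot after scaling, in ascending order, with the mean dashed. The knockout spots are all higher before scaling, and the ratios lie between -0.06 and 0.14 after it.

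Gja5 encodes the connexin of atria, Purkinje fibers and arterial endothelium. One of its probes had a processed signal of 110 in the knockout pool and 105 in the control pool (log2 ratio -0.07, SE 0.21), and the other had 2.33 in the knockout pool and 2.64 in the control pool, neither above background. The sign of the Gja5 ratio was not settled, as it was 0.08 without scaling. Gjc1, a connexin of the nodes that is also made in vessels, had 246 in the knockout pool and 299 in the control pool, a ratio of -0.43 (SE 0.21) or 1.35-fold lower. It had the lowest ratio of the 6 measured genes without reaching 1.5-fold, and 20.6% of all measured genes had a ratio of larger size. Under the 6 alternatives that could move it, the ratio of Gjc1, also read from 1 probe, lay between -0.44 and -0.24.

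Among the 20 connexin genes with a probe, 7 were measured and 13 were not well above background on either array. Of the 7, 2 were higher and 5 lower, none passed 1.5-fold, and the median was -0.08. That count past 1.5-fold is too small to read against the 12.0% of all genes. Without scaling, 4 were higher and 3 lower. Gja3, a connexin of the lens, had the lowest ratio of the family, -0.48, with 88.7 in the knockout pool and 111 in the control pool. Gja4, a connexin of arterial endothelium, had 657 in the knockout pool and 550 in the control pool (0.10). Gjb1, known from liver and Schwann cells, had -0.26.

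**Figure D4:**
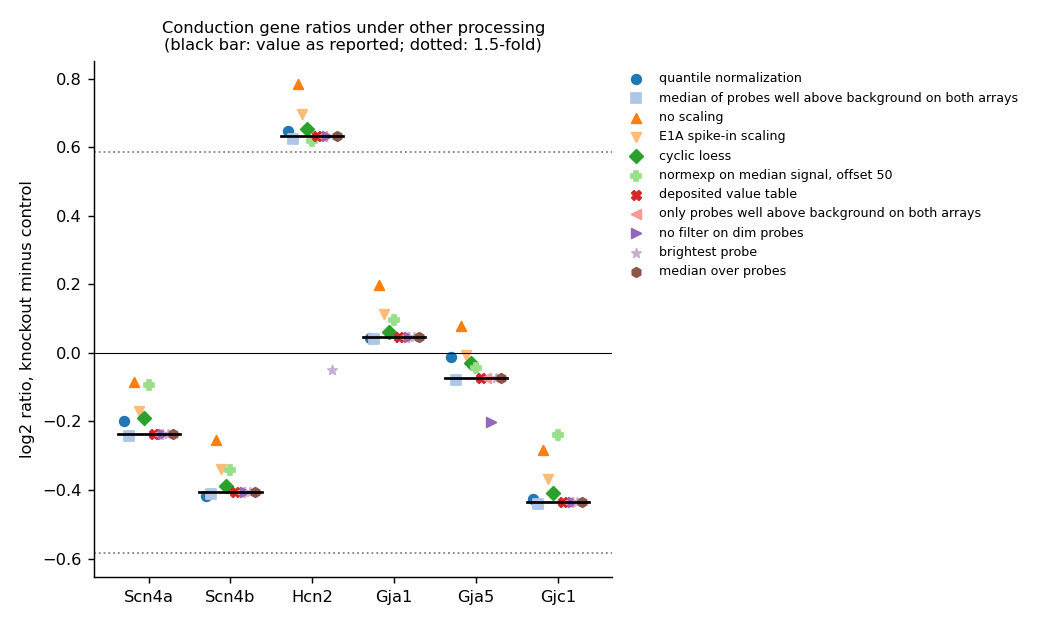
Log2 ratio, knockout minus control (vertical axis), of the 6 measured conduction genes under 11 other ways of processing (symbols), with the value as reported as a black bar and dotted lines at 1.5-fold. For genes with 1 probe, 5 of the 11 return the reported value by construction. Hcn2 falls to -0.05 when only its brightest probe is read, Gja5 crosses 0 without scaling, and the other genes keep their sign.

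Genes that act with these channels were counted from lists written for the purpose. In 5 lists of partners and regulators together with the 4 channel families, 85 of 113 listed genes were measured, of which 4 (4.71%) passed 1.5-fold upward, beside 6.15% of all genes, and 8 (9.41%) downward, beside 5.85% of all genes. The counts of single lists, of the alpha subunits above and of the partners and regulators below, are too small to read against the shares of all genes. The downward share of 9.41% depends on the scaling between the arrays. Without scaling 10 genes passed, and of the 8 lower genes Fgf13 (-0.44), Msx2 (-0.44), Adcy6 (-0.50) and Scn2a (-0.51) fell short. With the normexp correction of background 2 of the 12 remained past 1.5-fold, Hcn2 (0.62) among them. That correction adds 50 to every signal, which by construction draws the ratios of dim probes toward 0. Under it 4.46% of all genes passed 1.5-fold, beside 12.0% without it.

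After scaling, partners of the sodium channel were split evenly, 7 higher and 7 lower of 14 measured, with a median of -0.01. The 1 gene past 1.5-fold was Fgf13, a fibroblast growth factor homologue that binds the tail of the channel, with 161 in the knockout pool and 219 in the control pool (-0.59, just past the rule). Partners of gap junctions, the junctional and scaffold proteins among them, were also split 7 to 7 of 14, with a median of -0.00. Here Dbn1, which encodes the actin-binding protein drebrin, had 347 in the knockout pool and 179 in the control pool, a ratio of 0.80 or 1.74-fold higher. Both splits depend on the scaling, and without it both medians were 0.15. Of the sodium channel partners 10 were then higher and 4 lower, and of the gap junction partners 11 were higher and 3 lower. With the normexp correction Fgf13 had -0.44 and Dbn1 0.52, both short of 1.5-fold.

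Regulators of HCN channels, mainly of cyclic AMP, went both ways, with 7 higher and 4 lower of 11 measured. Their median was 0.21, and 0.36 without scaling. Adcy1, an adenylyl cyclase, had 44.7 in the knockout pool and 25.9 in the control pool (0.64). Adcy6, a main adenylyl cyclase of cardiomyocytes, had 1211 in the knockout pool and 1712 in the control pool (-0.65). Pde4d, a phosphodiesterase that breaks down cyclic AMP, had 73.8 in the knockout pool and 113 in the control pool, a ratio of -0.77 with both probes below 0 (-0.91 and -0.63). With the normexp correction Adcy1 had 0.18, Adcy6 -0.55 and Pde4d -0.47, all short of 1.5-fold.

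Calcium channels and calcium handling genes of the pacemaker were mostly lower after scaling, 7 of 9 with a median of -0.15. That median was 0.00 without scaling, where 4 were lower and 5 higher. Cacna1c, the pore of the cardiac L-type calcium channel, was the 1 gene past 1.5-fold, with 33.1 in the knockout pool and 54.0 in the control pool (-0.86), and had -0.38 with the normexp correction. Transcription factors of the conduction system were lower in 14 of 20 measured genes, with a median of -0.25. Without scaling 12 were lower and 8 higher, and the median was -0.10. The 3 factors past 1.5-fold were all lower in the knockout, beside 5.85% of all genes, and that count is too small to read against the share. Irx2 had 42.4 in the knockout pool and 84.4 in the control pool (-1.15), Tbx5, which is required for the ventricular conduction system, had 456 in the knockout pool and 711 in the control pool (-0.79), and Msx2 had 29.1 in the knockout pool and 39.5 in the control pool (-0.59). With the normexp correction Irx2 had -0.57, Tbx5 -0.53 and Msx2 -0.32, and none of the 3 passed 1.5-fold.

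**Figure D5:**
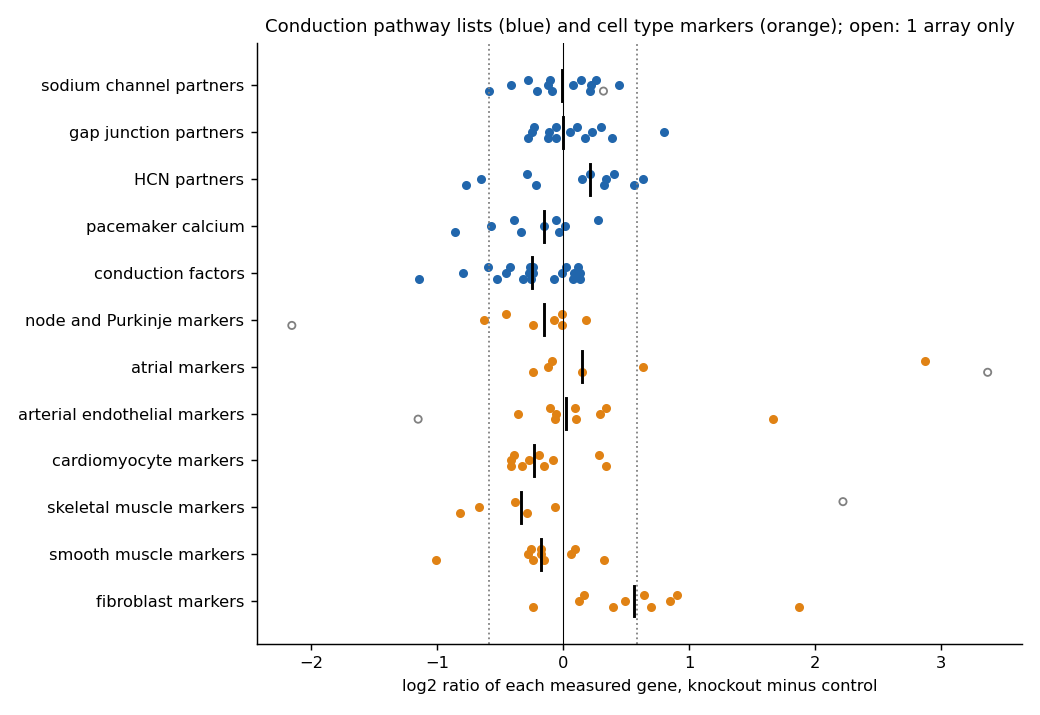
Log2 ratio, knockout minus control (horizontal axis), of each measured gene in lists of conduction pathway genes (blue) and cell type markers (orange), with open circles for genes measured on a single array, black bars for medians and dotted lines at 1.5-fold. The medians of the conduction lists lie between -0.25 and 0.21, and fibroblast markers have a median of 0.57.

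Markers of the cells that carry these channels were read beside them, since in whole ventricle fewer cells of a type and less RNA per cell cannot be told apart. Summed signals are given before scaling. Cardiomyocyte markers gave a summed signal of 1505620 in the knockout pool and 1497477 in the control pool. After scaling 8 of 10 genes were lower, with a median ratio of -0.23. Without scaling 6 were lower and 4 higher, with a median of -0.08. Myl2, the ventricular myosin light chain, had a signal of 243486 in the knockout pool and 250892 in the control pool, which fits the labelled tissue. Beside Hcn4 and the conduction factors, 8 of 15 node and Purkinje markers were measured, 7 of them lower (4 without scaling), with a median of -0.15. The defining markers Shox2, Isl1 and Cntn2 were not well above background on either array, and Pcp4 had 11.7 in the knockout pool, which was not above background, and 46.7 in the control pool, with a measured ratio of -2.15 that sets no minimum. Beside Gja5, atrial markers had a summed signal of 152880 in the knockout pool and 19664 in the control pool. Nearly all of that was Nppa, a natriuretic peptide that stressed ventricle also makes (2.87). Sln, measured on the knockout array alone, was at least 2.75-fold higher, and Myl7 had 0.63. Of the 7 measured genes of the atrial list, 3 passed 1.5-fold upward and 0 downward, beside 6.15% and 5.85% of all genes. In sign, 4 were higher and 3 lower, the lowest being Nr2f1 (-0.24), with a median of 0.15. Without scaling 6 were higher and 1 lower, with a median of 0.30. Beside Gja5 and Gja4, 5 of 10 arterial endothelial markers were higher and 5 lower, with a median of 0.02. Without scaling 8 were higher and 2 lower, with a median of 0.17.

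Beside Scn4a, 6 of 12 skeletal muscle markers were measured, with a summed signal of 3692 in the knockout pool and 5166 in the control pool and a median of -0.33. The fast myosins Myh1, Myh2 and Myh4 were not well above background on either array, and Tnnt3, measured on the knockout array alone, went the other way from the list and was at least 3.19-fold higher in the knockout. Beside Gjc1, smooth muscle markers had a summed signal of 20724 in the knockout pool and 21365 in the control pool. Of these markers 7 of 10 were lower, with a median of -0.18, or -0.02 without scaling. Beside Scn7a, Scn2a and Scn3a, neural and Schwann cell markers had a median of -0.27 over 6 of 10 measured. Fibroblast markers were higher in 9 of 10 genes (median 0.57). The part of these markers in the ratios of the conduction genes was not tested.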

How the data were processed

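The authors pooled left ventricular RNA of 6 mice per genotype and used 1 single-color array each. The deposited intensities are the background-subtracted processed signals of Agilent Feature Extraction (10.5.1.1 in the processing notes, 10.10.1.1 in the file headers), linear and unscaled. The deposited value table holds the same signals times 1 factor per array (log2 2.31 for the knockout and 2.45 for the control array, with medians of 64.0 and 67.2). How the factor was set is not stated, and the table was used as an alternative.

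From the log2 of each signal, the 75th percentile over the array's noncontrol spots was subtracted. Of 59305 noncontrol spots, 269 with an outlier flag were left out (0 of the 18 spots of the conduction genes), 0 were saturated, and 50.0% were well above background on the knockout array and 49.4% on the control array. Spots were averaged by probe, and probes called well above background on either array by gene. A gene measured on 1 array only was compared with the higher of its own signal and the lowest signal so called on the other array. Of 55676 probes, 26759 were matched through their annotation to a symbol of RefSeq genes (GRCm38.p6, used for names, gene order and promoter windows only). The number of arrays limits the precision. The arrays shared 1 slide and 1 scan.

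The genes, gene lists and alternatives were chosen with earlier results of these data known. Genes were named by rule: all 7 conduction genes, the measured genes of their families, the up to 3 lowest and 3 highest genes past 1.5-fold of each partner list, and 4 clock genes. Some genes of the families and marker lists are not reported here. Of marker lists, endothelial cells had a median ratio of -0.11 and macrophages 0.06. Alternatives were other scalings, a normexp correction (offset 50) on the median signal, the value table, other filters, other summaries of probes and other thresholds. The steps were tested on simulated data. Python 3.11.15 with numpy 2.4.6 and pandas 2.3.3, and R 4.3.3 with limma 3.58.1, were used.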

Additional observations from a re-analysis of the deposited data

How the results depend on the processing

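With 1 array per genotype no replicate could be left out. No paired analysis was possible because each genotype has 1 array and no test was made. Among the conduction genes, those at least 1.5-fold lower numbered 0. At a threshold of 1.3-fold 2 were lower (Scn4b and Gjc1), beside 23.4% of all genes past it in either direction. That count is too small to read against the share. Conduction genes at least 1.5-fold higher numbered 1, and 0 at 2-fold or with the brightest probe, which turned Hcn2 to -0.0512 by leaving out its other probe. The median of the conduction genes, -0.15, was -0.0031 without scaling and -0.0691 with the normexp correction. Gja5 turned to 0.08 without scaling. Over the families and partner lists, 12 genes passed 1.5-fold, against 25 at 1.3-fold, 1 at 2-fold, 10 without scaling and 2 with normexp. Over all genes 12.0% passed, against 23.4% at 1.3-fold, 4.47% at 2-fold, 13.5% without scaling and 4.46% with normexp. The median of all genes was 0.14 without scaling. For signals near the lowest well above background (11.07 on the knockout and 11.06 on the control array), as of Scn2a and Scn2b, dimness limits the ratio. The signals of Hcn4 lay below it on both arrays, and no fold was taken.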

Other observations

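Genes next to the conduction genes on the chromosome were read as a further description. The neighbors of Hcn2 on chromosome 10 were Bsg, which encodes the chaperone of monocarboxylate transporters, with a log2 ratio of 0.31, and Polrmt, the mitochondrial RNA polymerase, with 0.13. Those of Gjc1 on chromosome 11 were Adam11 at -0.12 and Higd1b at -0.17. Beside Gja1 on chromosome 10 lay Msl3l2 at 0.32 and Hsf2, a heat shock factor, at 0.03. Prr29 next to Scn4a had -0.53, and Acp6 next to Gja5 had -0.28. None of the 11 neighbors measured passed 1.5-fold, a count too small to read against the 12.0% of all genes that did.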
